A study of Mus musculus with 56 samples.

Results

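Cytotoxic granule genes and Fas ligand were followed in CD8 T cells of mice that recognise an antigen shared by a skin graft and by the fetus. The 10 genes were taken by name from the table of 55359 genes, and each was found once by its Ensembl identifier: the granzymes Gzma, Gzmb, Gzmk and Gzmm, the pore protein Prf1, the granule components Nkg7, Srgn and Ctsw, the granzyme B inhibitor Serpinb9 and the death ligand Fasl. All 10 passed the filter on low counts. The cells were OVA:Kb tetramer-positive CD8 T cells with fetus/graft shared specificity (TFGS), sorted from pooled spleen and lymph nodes of individual C57BL/6 females whose T cell receptors were not transgenic. Naive females (n = 3 in the tests) had neither a graft nor a pregnancy. Sensitized females (n = 4) had rejected skin of 2W-OVA.BALB/c donors, which carry the 2W-OVA antigen in all their tissues, at least a month before. Females mated with 2W-OVA.BALB/c males gave the post-partum subsets, sorted in the first days after delivery. From naive mothers came N+P C1 (PD1-, n = 3) and N+P C5 (PD1+ CD73+, n = 3). From mothers sensitized by a graft came S+P C4 (PD1-, n = 6), S+P C5 (PD1+ CD73+, n = 6) and S+P C7 (PD1+ CD73-, n = 5). Here n counts the samples numbered in the labels, some of which may share an animal. Each library held 200 sorted cells, so a lower value can mean fewer expressing cells or less RNA per cell, which cannot be told apart here.

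A cytotoxic T cell kills by releasing granules in which serglycin, the proteoglycan encoded by Srgn, holds granzymes and perforin. Perforin opens the target membrane, granzymes enter and cut proteins, and Serpinb9 protects the killer cell from its own granzyme B. Fas ligand works without granules: it binds Fas on the target and starts caspase-8 signalling. Memory and effector CD8 T cells are known to keep more transcript of these genes than naive cells.

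Samples had 15547934 to 54809406 counts once their technical libraries were summed. All levels are in CPM, which sets each count against the TMM-adjusted size of its library. 3 samples had under 9000 detected genes: S+P C4 replicate 2 (8002 genes), S+P C4 replicate 3 (7436) and S+P C7 replicate 3 (7879). Mitochondrial counts made up 24.3% of S+P C4 replicate 3. 1 library was deposited both as Naive replicate 1 and as S+P C4 replicate 1 with the same count for every gene, and it was used for neither. The technical libraries of 1 sample often disagreed for the scarcer granule genes. Over 22 pairs the median absolute difference was 0.90 on the log2(CPM + 1) scale for Gzmm, 0.77 for Serpinb9, 0.75 for Fasl and 0.69 for Gzmb, against 0.15 for Ctsw and 0.21 for Nkg7. The largest difference in a pair was 6.02 for Gzmb, 5.59 for Prf1 and 0.78 for Nkg7.

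The 7 CD8 T cell markers summed to 4445 to 7413 CPM in every sample, with Cd8b1 the most abundant by its mean in each of the 7 groups. The 6 NK cell markers matter most here because NK cells use the same granule genes. Apart from S+P C7 replicate 3 they summed to 0 to 144.6 CPM. In that sample they reached 1066 CPM, with Tyrobp at 481.7 CPM and Ncr1 at 102.7 CPM, beside 8232 CPM of B cell markers, 509.1 CPM of dendritic cell markers and 16498 CPM of red cell and platelet markers. In the other 29 samples the B cell markers, led by Ighm, summed to at most 1368 CPM and the red cell and platelet markers to at most 349.1 CPM. The lists for CD4 and regulatory T cells, gamma delta T cells, monocytes and macrophages, neutrophils, mast cells and basophils, and dendritic cells reached at most 50.4, 33.9, 332.0, 95.9, 32.8 and 23.1 CPM in those 29 samples.

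**Figure D1:**
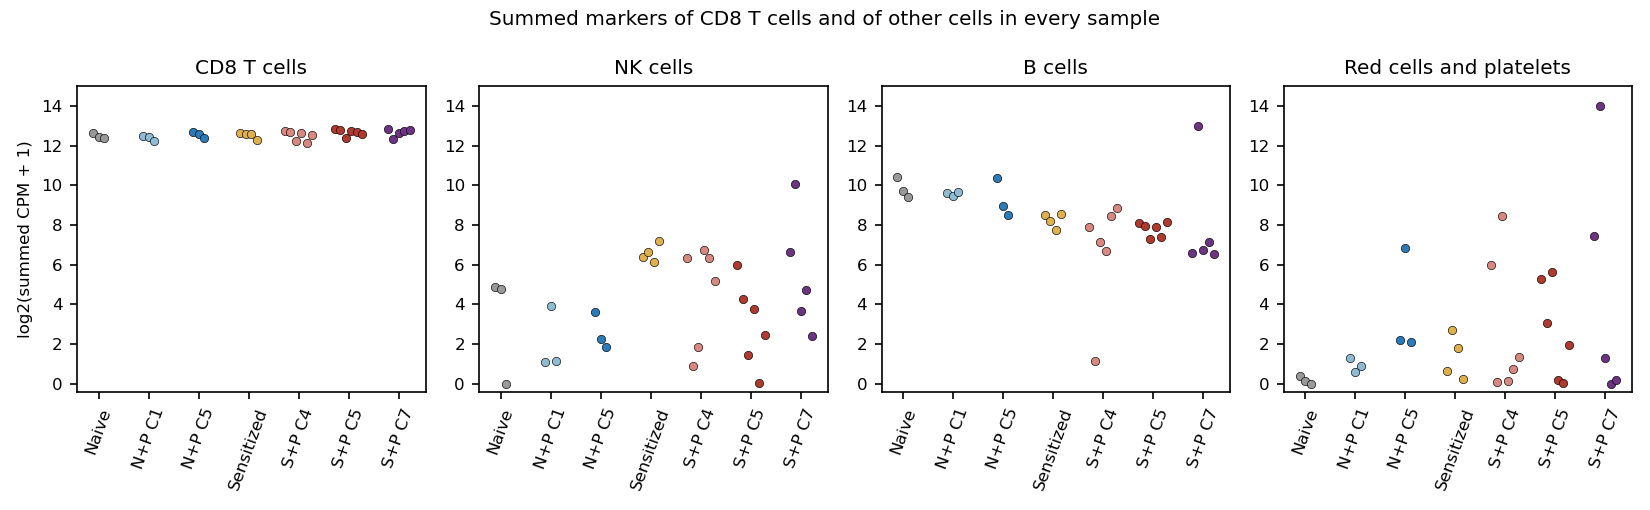
Each point is 1 sample, and the y axis gives log2(summed CPM + 1) of the markers of CD8 T cells, NK cells, B cells, and red cells and platelets. CD8 T cell markers are level across the 7 groups, and 1 S+P C7 sample lies far above the rest for the other 3 lists.

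The granzyme genes are shown with the sequence around their transcript start, because much of what follows turns on them. The sequences run from 250 bases before to 50 bases after the start of the Ensembl canonical transcript on GRCm39 with GENCODE M39, in the direction of transcription. Gzma lies at chr13:113237475-113237774 (minus strand), Gzmb at chr14:56499668-56499967 (minus), Gzmk at chr13:113317382-113317681 (minus) and Gzmm at chr10:79524604-79524903 (plus). Each window holds the promoter and the first transcribed bases. Capitals mark matches, on either strand, to the letters TGTGGT (RUNX), AGGTGT (T-box), TGANTCA (AP-1) and TTCNNNGAA (STAT), of which no matches overlap.
Gzma: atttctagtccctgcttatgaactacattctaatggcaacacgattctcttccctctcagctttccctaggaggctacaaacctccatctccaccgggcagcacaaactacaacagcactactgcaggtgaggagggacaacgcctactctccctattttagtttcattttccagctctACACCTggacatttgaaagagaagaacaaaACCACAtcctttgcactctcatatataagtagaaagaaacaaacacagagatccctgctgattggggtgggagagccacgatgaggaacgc
Gzmb: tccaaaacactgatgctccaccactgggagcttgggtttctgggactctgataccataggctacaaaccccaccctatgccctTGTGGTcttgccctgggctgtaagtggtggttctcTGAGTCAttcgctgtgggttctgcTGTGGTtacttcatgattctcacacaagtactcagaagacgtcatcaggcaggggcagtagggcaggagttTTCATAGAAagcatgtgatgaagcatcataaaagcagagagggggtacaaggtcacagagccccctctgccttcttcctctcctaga
Gzmk: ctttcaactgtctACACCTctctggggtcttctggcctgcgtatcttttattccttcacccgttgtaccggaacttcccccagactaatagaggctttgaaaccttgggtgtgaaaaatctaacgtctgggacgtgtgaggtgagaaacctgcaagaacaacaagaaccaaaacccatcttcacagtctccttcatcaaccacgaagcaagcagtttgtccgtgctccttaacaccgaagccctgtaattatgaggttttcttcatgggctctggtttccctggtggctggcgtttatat
Gzmm: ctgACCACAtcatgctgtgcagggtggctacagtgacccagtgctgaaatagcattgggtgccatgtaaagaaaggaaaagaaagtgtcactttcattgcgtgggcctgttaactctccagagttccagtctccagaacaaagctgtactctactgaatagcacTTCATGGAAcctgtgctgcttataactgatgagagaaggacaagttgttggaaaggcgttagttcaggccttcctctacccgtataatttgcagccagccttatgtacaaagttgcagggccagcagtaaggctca
The RUNX letters occurred at -41 of Gzma, at -167 and -108 of Gzmb and at -247 of Gzmm, counted from the transcript start to the leftmost base of the match. The T-box letters occurred at -71 of Gzma and at -237 of Gzmk, the AP-1 letters at -132 of Gzmb, and the STAT letters at -37 of Gzmb and -86 of Gzmm. RUNX letters were in the windows of 7 of the 10 genes (also Prf1, Nkg7, Srgn and Serpinb9) and in 15.3% of the windows of 21757 protein-coding genes. T-box letters were in 2 of the 10 (14.6% of all windows), AP-1 letters in 1 (7.15%) and STAT letters in 3, Nkg7 included (8.82%). A match describes letters and is not evidence of binding.

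Per kilobase of exon, the ranking of the 10 genes differed between the groups, except that Nkg7, a granule membrane protein needed for efficient degranulation, came first in all 7. Its mean level ran from 1047 CPM per kb in Naive to 4774 CPM per kb in S+P C7. In Sensitized, Naive, N+P C5 and N+P C1 TFGS the next in order was Ctsw, the gene of the lymphocyte protease cathepsin W, at 216.5 to 517.8 CPM per kb. In S+P C4 and S+P C7 Gzma came next instead, at 2528 and 1252 CPM per kb. Replicate 1 of S+P C7 held 4015 CPM per kb of it, and replicates 3, 4, 5 and 6 held 335.4, 1093, 309.0 and 509.3 CPM per kb. In S+P C5 the next was Srgn, at 373.6 CPM per kb. The scarcest was Gzmk in Naive at 0.0560 CPM per kb.

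**Figure D2:**
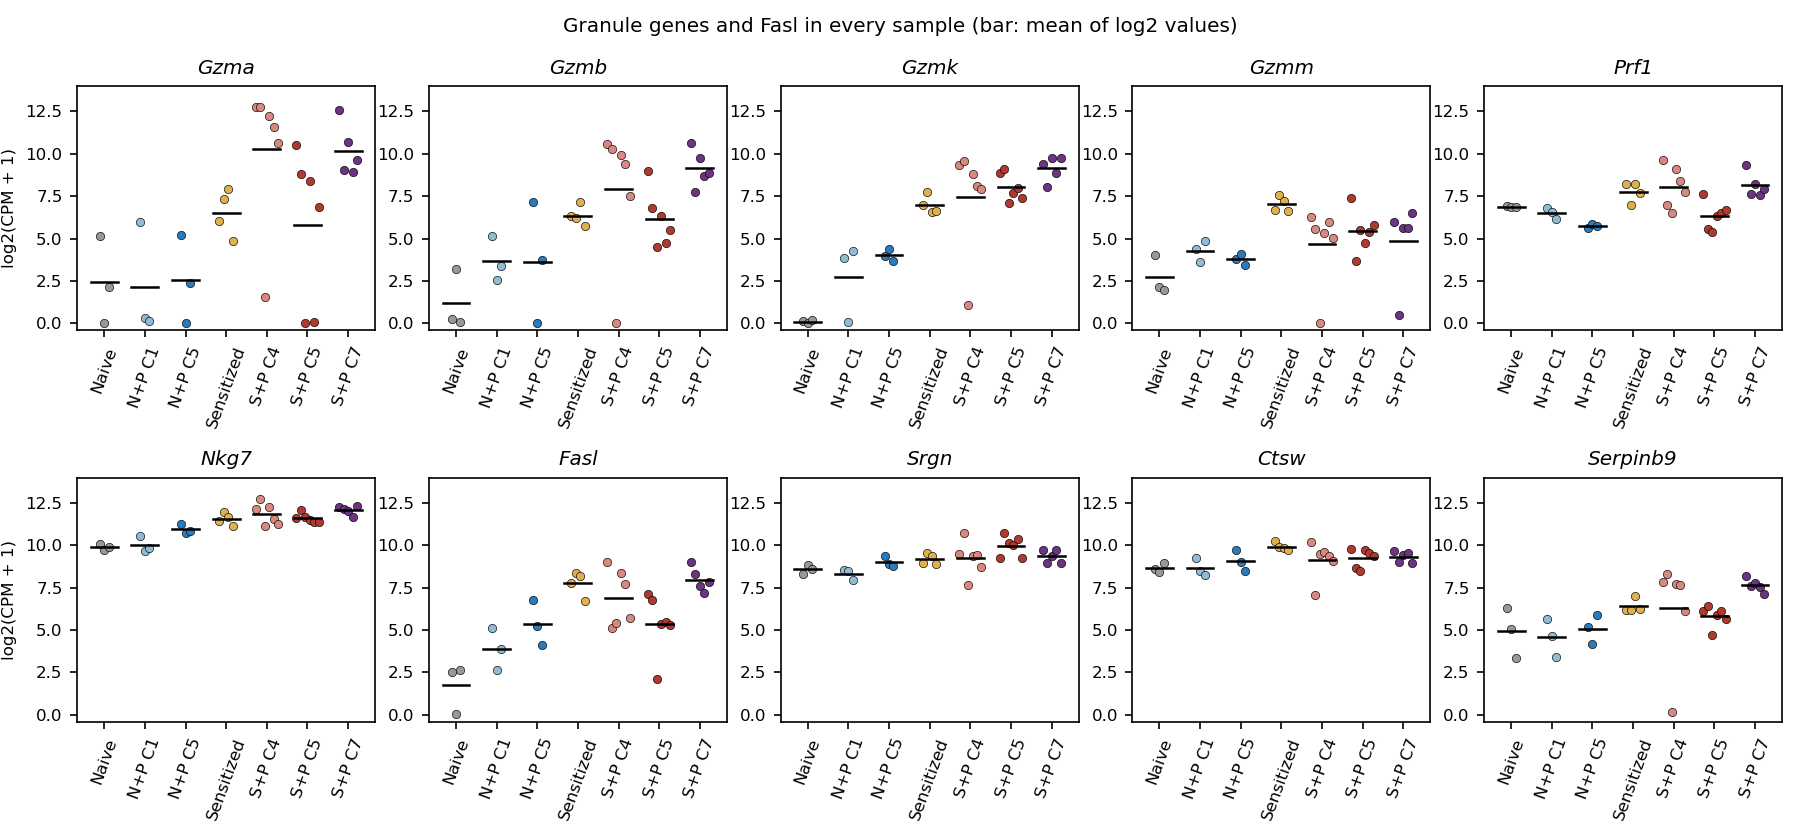
Each point is 1 sample, the bar is the mean of the log2 values, and the y axis gives log2(CPM + 1) for each of the 10 genes in the 7 groups. Gzmk lies at the bottom in the 3 Naive samples, Prf1 and Nkg7 vary little within Naive, and 1 S+P C4 sample lies near 0 for Gzmb, Gzmm and Serpinb9.

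The first comparison asks what a rejected skin graft leaves in memory TFGS. Sensitized TFGS held more Gzmk, Nkg7 and Fasl than Naive TFGS, and these 3 of the 10 genes passed both thresholds (edgeR, a Benjamini-Hochberg adjusted p under 0.1 together with a log2 fold change beyond 0.9 either way), against 30 of the 19659 genes tested (0.153%). By DESeq2 5 of the 10 passed, Gzmb and Gzmm being added, against 3.32% of its genes. In 8 of the 10 the lowest Sensitized sample exceeded the highest Naive one, while 7.59% of all genes tested had groups that did not overlap in either direction. The exceptions were Gzma and Serpinb9. With the doubly deposited library kept the number was 7, Gzmb being lost, beside 8.12% of all genes. The median log2 fold change was 2.48 over the 10 genes and 0.04 over all genes tested.

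Gzmk encodes a tryptase-like granzyme typical of memory cells. The 3 Naive samples held 2, 0 and 4 Gzmk counts, or 0.0823, 0 and 0.151 CPM, and the count of 0 allows up to 0.0994 CPM. The 4 Sensitized samples held 125.3, 217.4, 94.7 and 96.2 CPM. With the library deposited under both groups left out, the groups lie far apart: pooled over samples the ratio was 1664, with a counting interval of 765 to 4535 (exact Poisson, 95%, from the 6 Naive counts), and edgeR gave an adjusted p of 0.00152. Both the size and the call rest on that choice, because the library held 398 Gzmk counts (22.2 CPM of its total). With it kept, an alternative chosen after seeing the data, the ratio was 29.8, the log2 fold change was 5.32 and the adjusted p was 0.507 (range over 15 alternatives 2.85e-15 to 0.507). Without it the log2 fold change was 10.7, and 10.11 to 11.62 when 1 replicate was left out as well. The same library held 3608 Gzmb counts (201.2 CPM), while the 3 Naive samples used held 0.206, 8.28 and 0.0378 CPM of Gzmb. Of its total it also held 924.5 CPM of Nkg7, 119.9 CPM of Prf1, 0.11 CPM of Fasl and 48.3 CPM of Gzma. The 3 Naive samples used held 839.8 to 1101, 114.8 to 119.7, 0.0331 to 5.29 and 0 to 34.4 CPM of these. The other library of S+P C4 replicate 1 held 4489, 790.1, 513.6 and 6826 CPM. Which sample the doubly deposited library came from was not tested.

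Gzmb encodes the granzyme that cuts after aspartate and activates caspases. It stood at 79.5, 72.3, 140.1 and 52.2 CPM in Sensitized samples, above each Naive sample, with a log2 fold change of 4.91 ± 2.08 (SE) and an adjusted p of 0.626. That size and the separation rest on which Naive libraries are used. With the doubly deposited library kept, Naive replicate 1 stood at 88.3 CPM, inside the Sensitized range, and the log2 fold change was 1.41 (edgeR, adjusted p = 1). Without Naive replicate 2, at 8.28 CPM, it was 9.43 (adjusted p = 0.812). Gzmm, a granzyme that cuts after methionine or leucine, stood at 98.3 to 186.7 CPM against 2.98 to 15.6 CPM (4.19 ± 1.36, adjusted p = 0.626 by edgeR), and the log2 fold change was 5.38 without Naive replicate 1 (adjusted p = 0.809). Neither gene passed, although with that library left out the groups did not overlap. Without the 3 samples with under 9000 genes, none of which is in these 2 groups but which enter the shared estimate of the spread, the adjusted p of Gzmm was 0.00184 (range over 15 alternatives 0.00184 to 0.812) and 5 of the 10 genes passed, with Gzmm and Ctsw added, as did 0.782% of all genes in that fit.

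Prf1 was already transcribed without any exposure, at 119.7, 114.8 and 117.5 CPM in the 3 Naive samples. Sensitized samples held 300.8, 125.4, 298.1 and 201.3 CPM of it, above the Naive ones, but the log2 fold change of 0.98 ± 0.60 did not pass (edgeR, adjusted p = 0.716). Sensitized replicate 2 was only just above Naive, and its technical libraries disagreed, at 178.0 and 2.71 CPM of their totals. Nkg7 rose from 1101, 839.8 and 945.7 CPM in Naive to 2822, 3976, 3278 and 2293 CPM in Sensitized. These groups do not overlap, and the change was 1.68 ± 0.30 on the log2 scale (edgeR, adjusted p = 0.00548). The call was lost without Naive replicate 2 (adjusted p = 0.127) or 3 (0.107) and without the filter on low counts (0.513, the highest of 15 alternatives, of which the lowest was 4.09e-06). Ctsw stood at 838.0 to 1210 CPM in Sensitized and 341.3 to 502.1 CPM in Naive (1.26 ± 0.44, adjusted p = 0.626 by edgeR), and Srgn at 471.9 to 735.0 and 315.8 to 454.5 CPM (0.62 ± 0.44, adjusted p = 0.873).

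Fasl was near absent in Naive TFGS, at 4.82, 0.0331 and 5.29 CPM. Sensitized samples held 219.0, 322.7, 292.9 and 105.6 CPM. Every Sensitized sample was thus well above the Naive ones, with a log2 fold change of 6.12 ± 1.33 (edgeR, adjusted p = 0.0566). The call was lost without any 1 of the Naive samples (adjusted p = 0.385, 0.270 and 0.327 without replicates 1, 2 and 3) and without Sensitized replicate 2 (0.113) or 3 (0.102), and the lowest of its 15 alternatives was 9.15e-07. The summed NK cell markers were also higher, at 69.8 to 144.6 CPM in Sensitized and 0 to 28.3 CPM in Naive, but of the 6 genes mainly Klrb1c was (53.3 to 125.9 CPM against at most 0.0823 CPM). Mean levels in Sensitized and Naive were 9.64 and 10.9 CPM for Tyrobp, 3.93 and 6.89 CPM for Fcer1g, 0.10 and 0.442 CPM for Klra4 and 0.0125 and 0.0110 CPM for Klra8. Ncr1 was at 0 in 3 of the 4 Sensitized and all 3 Naive samples. The B cell markers, mainly Ighm, were lower, at 211.1 to 372.9 CPM in Sensitized and 670.6 to 1368 CPM in Naive. Those of dendritic cells were higher (3.64 to 15.2 against 0.596 to 3.17 CPM). Those of neutrophils were at 95.9 CPM in Sensitized replicate 4 alone. They were at 0.0910 to 0.27 CPM in the other Sensitized samples and 0 to 0.0756 CPM in Naive. The part of these markers in the results was not tested.

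**Figure D3:**
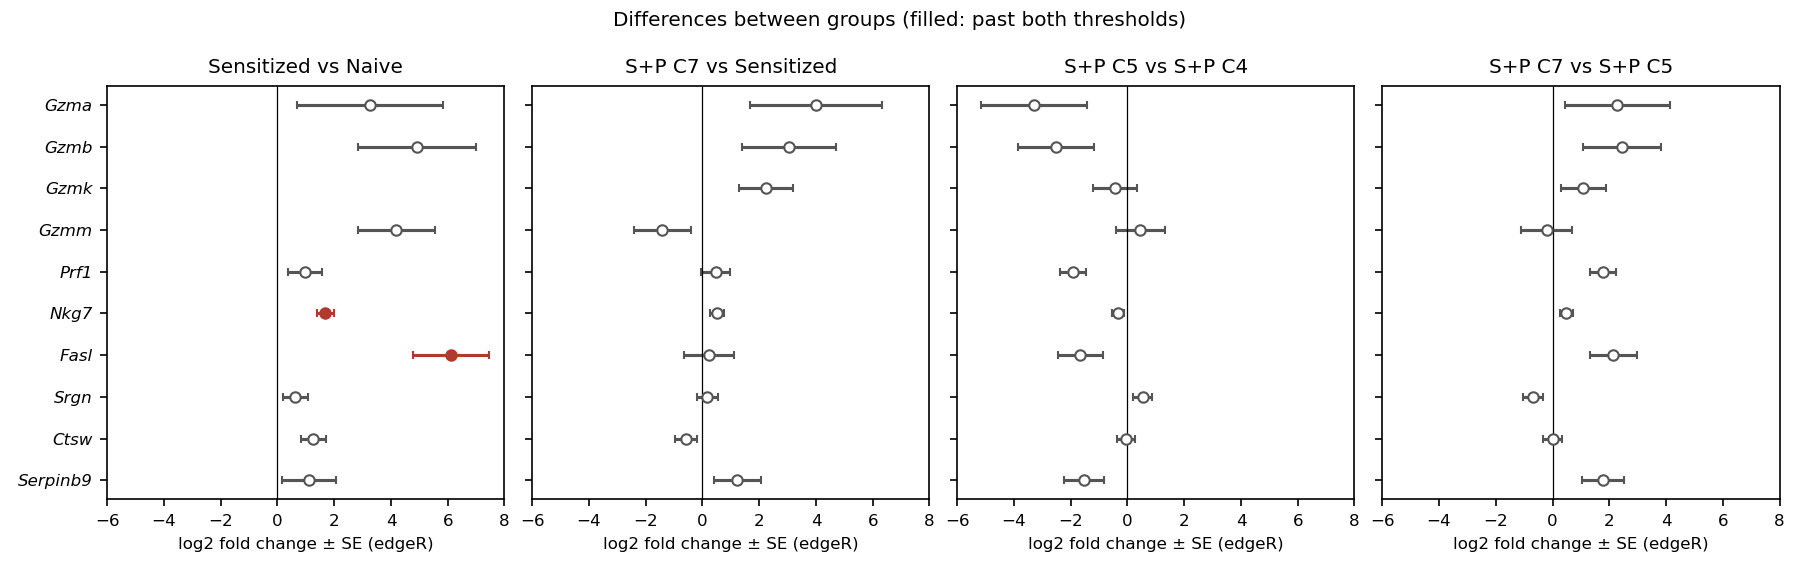
Points give the log2 fold change of each gene with its SE (edgeR) in 4 comparisons, filled where both thresholds were passed. The value of Gzmk against Naive is left out because its size depends on the prior count when Naive holds 6 counts, although that comparison passed. Nkg7 and Fasl are filled in Sensitized against Naive, and no gene is filled in the other 3 panels.

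The next comparisons ask what pregnancy leaves in TFGS that had not met the antigen before. N+P C5 and N+P C1 share the Naive samples as their reference. All post-partum subsets were sorted by PD1, with or without CD73, while the Naive and Sensitized labels name no such gate. Pregnancy and gate therefore cannot be told apart in comparisons with those references. Gzmk was the only one of the 10 genes past both thresholds in N+P C5 (0.0407% of all genes tested passed, 8 genes), at 14.96, 19.7 and 11.9 CPM, a pooled ratio to Naive of 209 (counting interval 96.1 to 570) with an adjusted p of 0.0541 by edgeR. All 3 N+P C5 samples lay above the Naive samples. With the doubly deposited library kept the ratio was 3.75 and the log2 fold change 2.22, and the call was lost (adjusted p = 0.802). It was also lost without Naive replicate 1, 2 or 3 (0.543, 0.417 and 0.270), without N+P C5 replicate 1 (0.101) and with N+P C5 and Naive alone in the fit (0.121), within a range over 14 alternatives of 5.23e-07 to 0.802. The log2 fold change, 7.6 in the main fit, was 7.65, 7.0, 8.52, 7.62 and 7.6 in these fits in turn. In N+P C1 Gzmk was 13.4, 0.0348 and 17.9 CPM, so 1 of the 3 samples lay at the Naive level. By edgeR none of the 10 genes passed there, as 0 (0%) of all genes tested did, and 2 of the 10 were at an unadjusted p under 0.05, as 3.25% of all genes were. DESeq2 called 3 of the 10 in N+P C5 (Gzmk, Nkg7 and Fasl) against 3.06% of its genes, and 1 (Gzmk) in N+P C1 against 2.26%. When N+P C1 replicate 2 was left out, Gzmk passed in N+P C1 by edgeR too (adjusted p = 0.0216, 1 of 23377 genes called, in a range over 13 alternatives of 8.58e-06 to 1). That replicate is the sample at the Naive level, so its removal widens the gap by construction and lends the call no weight. Without the 3 samples with under 9000 genes Gzmk passed in N+P C1 as well (edgeR, adjusted p = 0.00738). The pooled ratio of N+P C1 to Naive was 149, and 2.67 with the doubly deposited library kept.

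Nkg7 stood at 2466, 1717 and 1816 CPM in N+P C5. It stood at 1480, 806.0 and 914.5 CPM in N+P C1. The N+P C5 samples lay above every Naive and N+P C1 sample, by a log2 fold change of 1.06 ± 0.31 against Naive (edgeR, adjusted p = 0.659) and 0.91 ± 0.31 against N+P C1 (adjusted p = 0.917). Against Naive Nkg7 passed without the 3 samples with under 9000 genes (1.08, adjusted p = 0.0619 by edgeR). With the replicate number as a block it passed between the post-partum subsets (0.94, adjusted p = 0.0871 by edgeR, the lowest of 15 alternatives that reached up to 1), where 29 of 13219 genes passed (0.219%). Fasl stood at 107.0, 36.4 and 16.3 CPM in N+P C5 and at 34.0, 5.33 and 13.7 CPM in N+P C1, each sample above the Naive ones, N+P C1 replicate 2 only just (5.33 against 5.29 CPM). Its log2 fold changes against Naive were 3.98 ± 1.22 and 2.39 ± 1.14 (edgeR, adjusted p = 0.763 and 0.994). They were 2.96 without N+P C5 replicate 1 and 1.49 without N+P C1 replicate 1 (adjusted p = 0.997 and 1).

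Prf1 stood lower, not higher, in both post-partum subsets of naive mothers than in Naive. It was 49.1, 57.9 and 52.9 CPM in N+P C5. It was 110.3, 95.5 and 69.7 CPM in N+P C1. Neither subset overlaps Naive, and N+P C5 lies below N+P C1 as well, yet the log2 fold changes of -1.14 ± 0.63 (N+P C5 against Naive, adjusted p = 0.763), -0.35 ± 0.63 (N+P C1 against Naive, adjusted p = 1) and -0.79 ± 0.63 (N+P C5 against N+P C1, adjusted p = 1) did not pass by edgeR. Gzmb was uneven in N+P C5, at 143.7, 0 and 12.3 CPM, the 0 allowing up to 0.0877 CPM. Gzma, the tryptase-like granzyme A, ran from 0 to 63.1 CPM over the 9 samples of Naive and both N+P subsets.

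Counted over the 10 genes, 4 did not overlap between N+P C5 and Naive (Gzmk, Nkg7 and Fasl higher, Prf1 lower), against 12.9% of all genes tested. For N+P C1 against Naive 2 did not (Fasl higher, Prf1 lower), against 7.3%, and this number was 4 without Naive replicate 1 (14.8% of all genes) and 5 without N+P C1 replicate 2 (14.1%). Between N+P C5 and N+P C1 3 did not (Nkg7 and Srgn higher, Prf1 lower), against 10.8%. None of the 10 passed by edgeR between those 2 subsets, where 0.00509% of all genes did, and none by DESeq2, where 2.49% did. 1 of the 10 was at an unadjusted p under 0.05, as 4.34% of all genes were. The median log2 fold change of the 10 was 0.65 in N+P C5 and 0.45 in N+P C1 against Naive, and 0 over all genes tested in both. The lists for CD4 and regulatory T cells, neutrophils, and red cells and platelets also stood apart between N+P C5 and Naive. They summed to 11.3 to 50.4, 0.559 to 6.57 and 3.26 to 112.4 CPM in N+P C5. In Naive they summed to 2.35 to 8.60, 0 to 0.0756 and 0 to 0.288 CPM. The NK cell list overlapped, but Klrb1c was at 2.42 to 9.42 CPM against at most 0.0823 CPM. The part of these markers was not tested.

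Pregnancy in mothers that were already sensitized was compared with Sensitized TFGS, which serve as the reference of all 3 S+P subsets. Gzma showed the widest span. In S+P C7 it was 6203, 518.2, 1688, 477.5 and 786.9 CPM. In Sensitized samples it was 63.7, 158.0, 237.0 and 27.9 CPM. All 5 S+P C7 samples were above all 4 Sensitized samples, a ratio of mean CPM of 15.9 and a log2 fold change of 3.99 ± 2.32 that did not pass (edgeR, adjusted p = 0.663). Without S+P C7 replicate 1 the ratio was 7.13 and the log2 fold change 2.83 (adjusted p = 0.958). S+P C4 had a median of 3976 CPM of Gzma (lowest 1.89, highest 7076 CPM, n = 6). 5 of its 6 samples were at 1581 CPM or more, and replicate 3, the sample rich in mitochondrial counts, lay below Sensitized (5.01 ± 2.42, adjusted p = 0.393 by edgeR). S+P C5 had a median of 225.5 CPM (lowest 0, highest 1468 CPM), across the Sensitized range. The count of 0, in replicate 3, allows up to 0.148 CPM.

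The other granzymes parted in direction. Gzmb was 1616, 211.2, 875.7, 407.8 and 461.6 CPM in S+P C7, above every Sensitized sample (3.05 ± 1.64, adjusted p = 0.575 by edgeR). Gzmk was 670.0, 267.4, 857.6, 472.2 and 861.8 CPM there, also above every Sensitized sample (2.23 ± 0.95, adjusted p = 0.473). Gzmm stood instead below Sensitized in both, at 62.7, 0.420, 48.0, 48.5 and 89.5 CPM in S+P C7 and a median of 42.6 CPM (0 to 75.0) in S+P C4, with no overlap (-1.42 ± 1.00, adjusted p = 0.853, and -1.66 ± 0.95, adjusted p = 0.530 by edgeR). The count of 0 for Gzmm in S+P C4 replicate 3 allows up to 0.298 CPM. Gzmk, Gzmm, Srgn, Ctsw and Serpinb9 each overlap another annotated gene. How the counting treated reads that fall on both genes is not stated, so the part of such reads in these counts is not known. Without the 3 samples with under 9000 genes, S+P C4 (n = 4) lay above Sensitized for Gzma, Gzmb and Gzmk as well, so 4 of the 10 genes did not overlap in place of 1, as did 2.55% of all genes. The number was also 4 without S+P C4 replicate 3 alone (1.33% of all genes), and 2 without S+P C4 replicate 1 (1.38%).

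In S+P C7 against Sensitized 6 of the 10 genes had groups that did not overlap (Gzma, Gzmb, Gzmk and Serpinb9 higher, Gzmm and Ctsw lower), against 2.15% of all genes tested. These 6 remained without S+P C7 replicate 3, the sample with markers of other cells, beside 4.51% of all genes. In S+P C4 it was 1 (Gzmm), against 0.799%, and in S+P C5 it was 0, against 2.88%. In S+P C5 the number became 2 without Sensitized replicate 2, Sensitized replicate 4 or S+P C5 replicate 1 (4.85%, 4.41% and 4.18% of all genes), and 1 without S+P C5 replicate 2 (3.72%). By edgeR 0 of the 10 passed in any of these subsets (C7, C4 and C5 in turn), where 0.0305%, 0.00509% and 0.0712% of all genes did. At an unadjusted p under 0.05 the numbers were 1, 1 and 3 of the 10, as were 10.2%, 12.7% and 13% of all genes. By DESeq2 they were 0, 1 (Gzma) and 0, against 2.42%, 2.97% and 3.17% of its genes. The 3 genes in S+P C5 were Prf1 (-1.33 ± 0.49), Fasl (-1.91 ± 0.84) and Srgn (0.85 ± 0.38), with adjusted p = 0.276, 0.319 and 0.321 by edgeR. The median log2 fold change of the 10 was 0.48, 0.48 and -0.27, and 0, -0.14 and -0.01 over all genes tested. The NK cell markers summed to a median of 25.4 CPM (4.23 to 1066) in S+P C7, 57.1 CPM (0.833 to 106.3) in S+P C4, 8.40 CPM (0.0254 to 62.3) in S+P C5 and 90.5 CPM in Sensitized, and their part was not tested.

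Subsets of sensitized mothers were then set against each other. Pairs join samples of equal replicate number. The log2 fold changes and adjusted p come from the fit over all groups, which does not use the pairs, unless a block is named. A number was taken as 1 mother, but samples with different numbers may share one, so the pairs are not counted as that many animals. S+P C5, which carries both PD1 and CD73, had the lowest median of the S+P subsets for Gzma, Gzmb, Gzmk, Prf1, Nkg7, Serpinb9 and Fasl, and only just for Gzmm. Prf1 was lower in S+P C5 than in S+P C4 in 6 of 6 numbered pairs, with a median of 84.0 CPM (41.4 to 195.1) in S+P C5. Its median was 276.3 CPM (91.5 to 790.1) in S+P C4. In S+P C7 it was 659.5, 199.2, 301.3, 190.4 and 239.1 CPM, higher than S+P C5 in 5 of 5 numbered pairs. S+P C4 overlaps S+P C5 only through its replicates 2 and 3 (125.4 and 91.5 CPM), and S+P C7 only through its replicate 5 (190.4 CPM), which lies below S+P C5 replicate 1 (195.1 CPM). The log2 fold changes were -1.92 ± 0.46 for S+P C5 against S+P C4 and 1.78 ± 0.47 for S+P C7 against S+P C5, and neither passed (edgeR, adjusted p = 0.199 and 0.277). With the replicate number as a block they were -1.76 ± 0.32 (edgeR, adjusted p = 0.119) and 1.61 ± 0.34, and neither passed. Prf1 in S+P C5 against S+P C4 passed without the 3 samples with under 9000 genes (-2.36 ± 0.38, adjusted p = 0.00540, with 0.199% of all genes called), when S+P C5 replicate 1 was left out (0.0707, with 0.0563% called) and by DESeq2 (0.00114, the lowest of 21 alternatives that reached up to 1). Between S+P C7 and the C5 subset it passed by DESeq2 (0.0152, the lowest of 20 that reached up to 1).

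Fasl and Serpinb9 were the 2 genes whose S+P C7 samples lay apart from those of S+P C5, as 0.397% of all genes tested did in either direction. Fasl was 510.4, 312.0, 189.1, 141.8 and 227.4 CPM in S+P C7. It had a median of 41.8 CPM (3.36 to 140.1) in S+P C5. The lowest S+P C7 sample was only just above the highest S+P C5 sample, and scaling by RLE factors closed that gap and left 1 gene (0.417% of all genes). The change was 2.14 ± 0.82 (edgeR, adjusted p = 0.277). Serpinb9 was 285.6, 193.4, 219.2, 182.7 and 141.0 CPM in S+P C7 and had a median of 62.7 CPM (25.3 to 85.1) in S+P C5, a change of 1.79 ± 0.74 (edgeR, adjusted p = 0.281).

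In 5 of 5 numbered pairs S+P C7 was above S+P C5 for Gzma, Gzmb, Gzmk, Prf1, Nkg7, Serpinb9 and Fasl, 7 of the 10 genes, as 2.13% of all genes tested were. The summed NK cell markers were higher in S+P C7 in 3 of these pairs, at 99.6 against 62.3 CPM for number 1, 1066 against 1.73 CPM for number 3 and 25.4 against 0.0254 CPM for number 5. They were 11.7 against 12.4 CPM for number 4 and 4.23 against 4.44 CPM for number 6. Whether NK cells had a part in the higher values of the 7 genes was not tested. The median log2 ratio within a pair, of CPM + 1, was 3.35 for Gzmb, 2.74 for Gzma, 2.21 for Fasl, 1.92 for Serpinb9, 1.75 for Prf1, 0.99 for Gzmk and 0.51 for Nkg7. Srgn went the other way in 4 of 5 pairs (median -0.63), and in S+P C5 it had a median of 1078 CPM (597.0 to 1720), the highest of the 7 groups. S+P C5 was below S+P C4 in 6 of 6 pairs for Gzma and Prf1, 2 of the 10 genes, as 0.88% of all genes tested were. It was below in 5 of 6 pairs for Gzmb, Gzmk, Fasl and Serpinb9, so that 6 of the 10 were lower in at least 5 of 6, as 4.6% of all genes were. The pair that differed was number 3 for Gzmb, Gzmk and Serpinb9, where S+P C4 has few detected genes, and number 2 for Fasl. The summed NK cell markers were also lower in S+P C5 at every number but 2. In S+P C5 and S+P C4 they were 62.3 and 79.0 CPM for number 1 and 18.1 and 0.833 CPM for number 2. They were 1.73 and 2.58 CPM for number 3 and 12.4 and 106.3 CPM for number 4. For numbers 5 and 6 they were 0.0254 and 79.4 CPM and 4.44 and 35.2 CPM. Their part in these differences was not tested. Against S+P C4 of the same number, S+P C7 was higher in 5 of 5 pairs only for Gzmk and Srgn among the 10, by a median log2 ratio of 0.94 and 0.25, as 2.52% of all genes were.

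**Figure D4:**
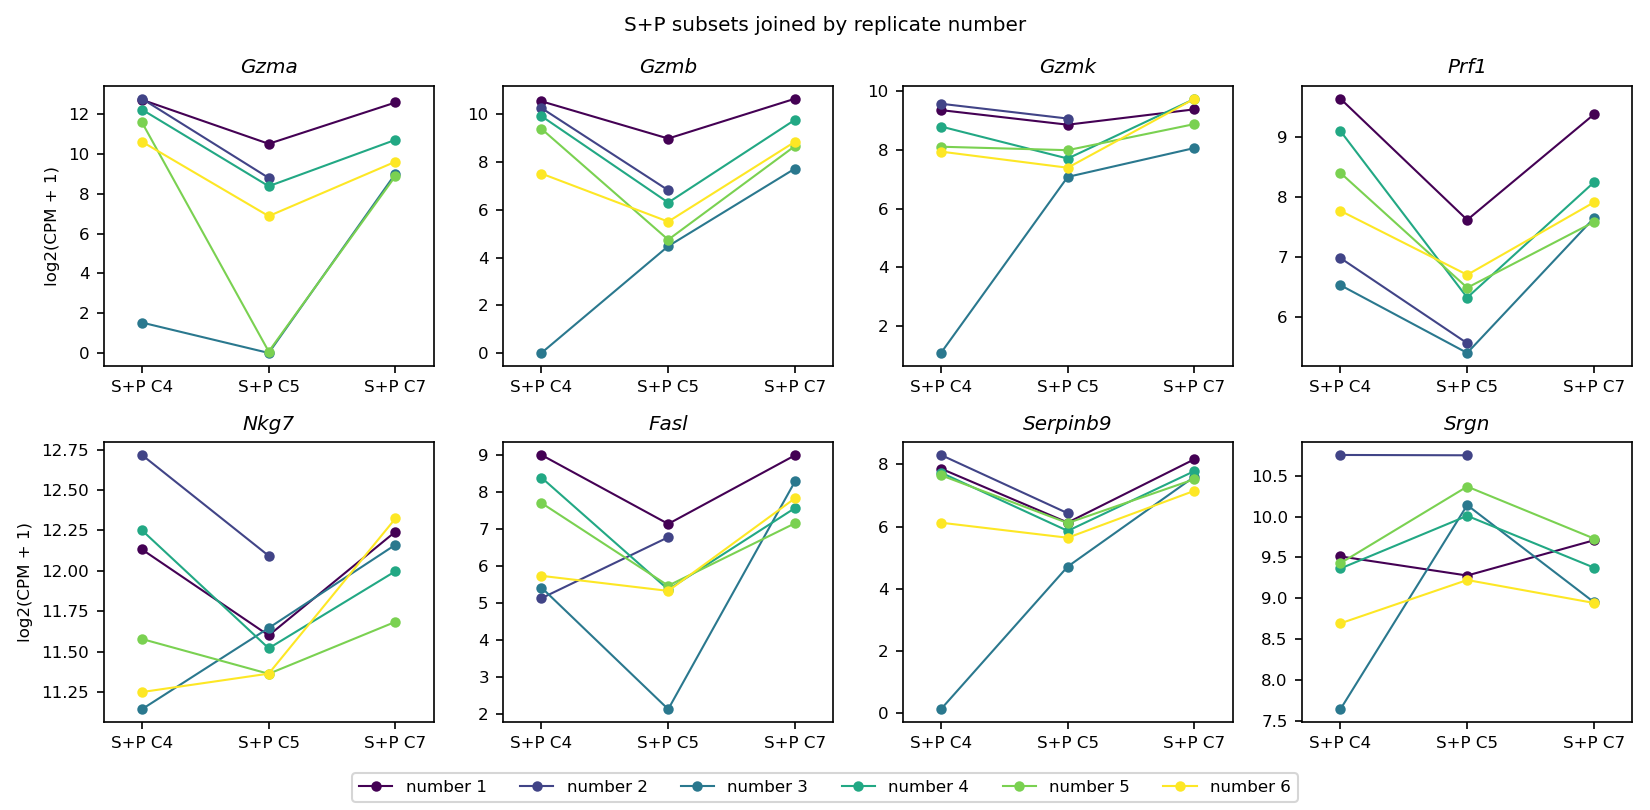
Lines join the samples of the S+P subsets that carry the same replicate number, and the y axis gives log2(CPM + 1), scaled separately for each of 8 genes. Prf1 is lowest in S+P C5 at every number, Gzma, Gzmb, Fasl and Serpinb9 are higher in S+P C7 than in S+P C5 in each of the 5 pairs, and number 3 lies near 0 in S+P C4 for Gzmb and Serpinb9.

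By edgeR 0 of the 10 genes passed in C5 against C4, C7 against C4 or C7 against C5, where 0.0305%, 0.00509% and 0% of all genes did. At an unadjusted p under 0.05 there were 3, 0 and 4 of the 10, and 13.3%, 15.9% and 12.7% of all genes. DESeq2 called 1 (Prf1), 0 and 1 (Prf1), against 3.05%, 3.03% and 1.9% of its genes. For S+P C5 and S+P C7 against S+P C4 0 of the 10 genes had groups that lay apart, as did 0.687% and 0.32% of all genes tested. Without the 3 samples with under 9000 genes, Gzma and Prf1 lay apart in the first, as did 1.94% of all genes (1 gene without S+P C4 replicate 3 alone, beside 0.977%). For C7 against C5 the number was 5 in place of 2 without S+P C5 replicate 1, beside 0.987% of all genes. The median log2 fold change of the 10 was -0.99, 0.05 and 1.44 in these 3 comparisons, and 0.11, 0.24 and 0.02 over all genes tested.

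Some numbers were high across subsets. Number 1 had the highest S+P C5 value for 6 of the 10 genes (Gzma, Gzmb, Gzmm, Prf1, Fasl and Ctsw), the highest S+P C7 value for 6 (Gzma, Gzmb, Prf1, Fasl, Ctsw and Serpinb9) and the highest S+P C4 value for 5 (Gzmb, Gzmm, Prf1, Fasl and Ctsw). Number 2 had the other 5 highest values in S+P C4 and the other 4 in S+P C5. Its S+P C4 sample is 1 of those with under 9000 genes. In S+P C7 the nearly identical libraries numbered 1 and 2 were averaged and stand as part of number 1, so number 2 has no S+P C7 sample here.

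The PD1+ CD73+ subset occurs in both kinds of mother, which allows memory and naive TFGS to be compared after pregnancy. Gzmk had a median of 231.0 CPM (134.4 to 538.2) in S+P C5. Each of these samples was above the 3 N+P C5 samples, a ratio of mean CPM of 19.0 and a log2 fold change of 4.25 ± 1.18 (edgeR, adjusted p = 0.807). Nkg7 had a median of 3022 CPM (2634 to 4368) in S+P C5, again above the N+P C5 samples (0.65 ± 0.27, adjusted p = 0.820). These 2 of the 10 genes did not overlap, against 2.67% of all genes tested, and the number was 4 without N+P C5 replicate 1 (6.06% of all genes). By edgeR 0 of the 10 passed, as did 0 of all genes (0%). At an unadjusted p under 0.05 were 3 of the 10 and 5.9% of all genes. By DESeq2 1 did (Gzmk), against 2.21%, and Gzmk also passed by edgeR without the 3 samples with under 9000 genes (adjusted p = 0.0726, with 0.0818% of all genes called) or with these 2 groups alone in the fit (0.0554, with 0.014% called), in a range over 17 alternatives of 0.00222 to 1.

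Fasl was at like levels in the PD1+ CD73+ subsets, with means of 62.5 ± 51.1 CPM (SD, n = 6) in S+P C5 and 53.2 ± 47.7 CPM (SD, n = 3) in N+P C5. The groups that serve as their references stood at 235.1 ± 96.7 CPM (SD, n = 4) in Sensitized and 3.38 ± 2.91 CPM (SD, n = 3) in Naive. The test of the difference between the changes, S+P C5 minus Sensitized less N+P C5 minus Naive, gave -5.89 ± 1.49 for Fasl and did not pass (edgeR, adjusted p = 0.492). It was -4.87 without N+P C5 replicate 1 (adjusted p = 0.944). 0 of the 10 passed by edgeR, where 0.0254% of all genes did. 3 of the 10 (Fasl, Gzmk and Nkg7) and 6.43% of all genes were at an unadjusted p under 0.05. DESeq2 called 2 (Fasl, adjusted p = 0.00221, and Gzmk) against 2.5%, and the 24 alternatives for Fasl ran from 0.00221 to 1. The median over the 10 was -1.05, and -0.06 over all genes tested.

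The makeup of the granzyme pool differed between the subsets, as a description without a test. Of the summed level per kilobase of the 4 granzymes, Gzma made up a median of 74.6% (60.8% to 76.1%) in S+P C4. It made up 46.4% (32.0% to 70.9%) in S+P C7, 33.2% (0% to 54.2%) in S+P C5 and 19.8% (9.49% to 36.5%) in Sensitized. The S+P C4 samples thus lie above all Sensitized samples, but S+P C4 replicate 3 has a summed level of only 2.01 CPM per kb, where shares say little. Gzmk made up the most in S+P C5, a median of 48.2% (19.1% to 79.9%), and 8.53% (7.3% to 39.2%) in S+P C4. Gzmm made up 28.0% (24.0% to 35.1%) in Sensitized. It made up at most 21.1% in S+P C5, 4.02% in S+P C7 and 1.62% in S+P C4, each without overlap with Sensitized. In Naive and both N+P subsets the summed level was 4.41 to 143.4 CPM per kb, and their shares swung with the few counts behind them.

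**Figure D5:**
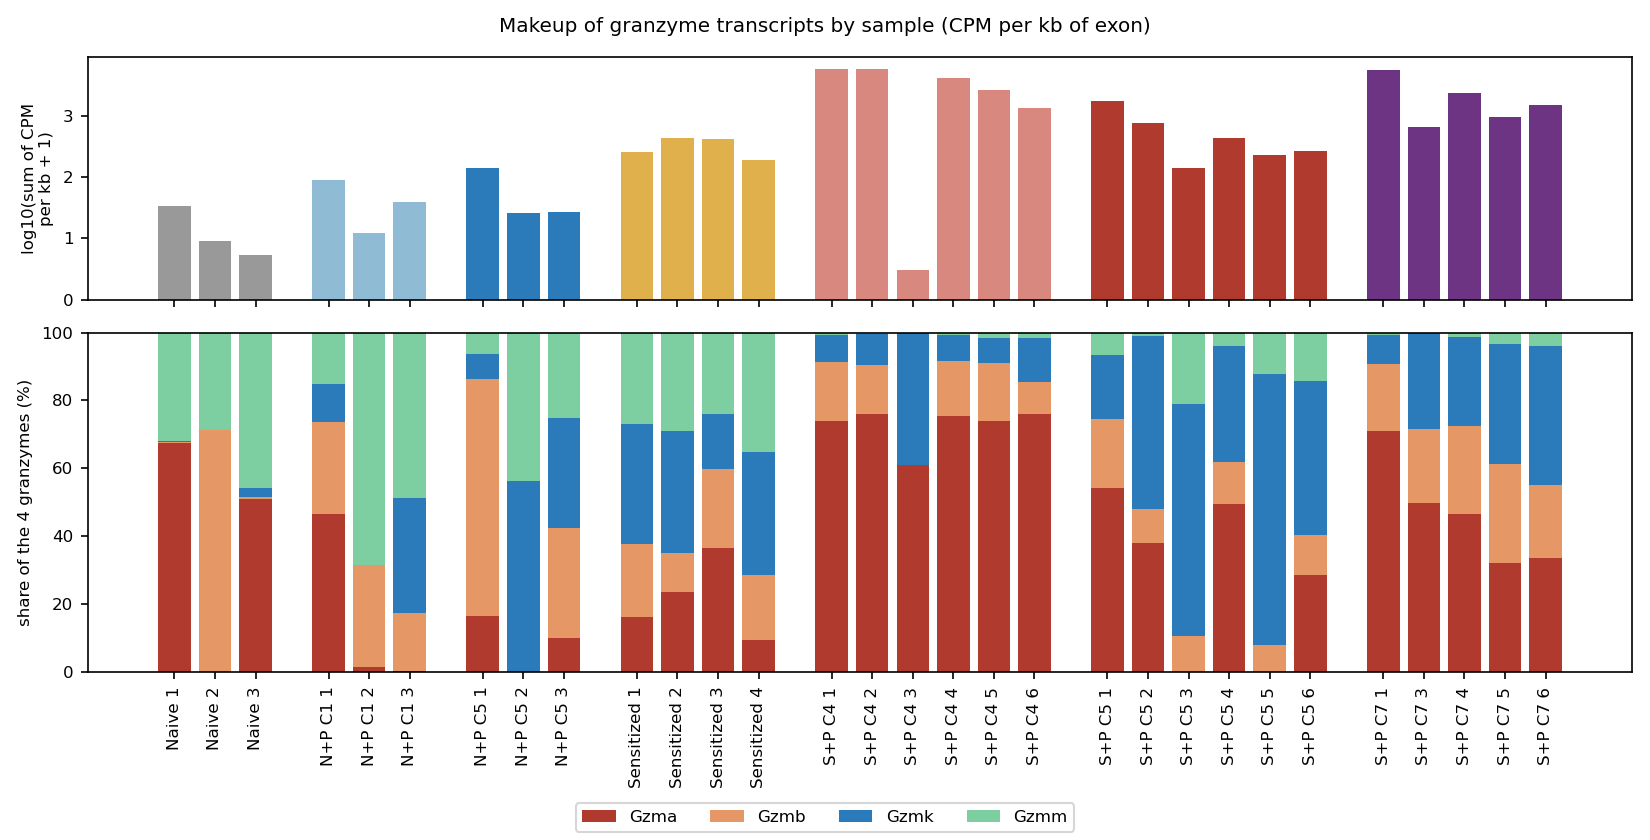
The upper bars give log10 of the summed CPM per kb (plus 1) of Gzma, Gzmb, Gzmk and Gzmm in each sample, coloured by group, and the lower bars the share of each granzyme in percent. Gzma takes the largest part in S+P C4 samples, Gzmk takes 19.1% to 79.9% in S+P C5, and Gzmm takes at least 24.0% in Sensitized and at most 4.02% in S+P C7.

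Other genes of the pathway were read from fixed lists. The 6 further granzymes (Gzmc, Gzmd, Gzme, Gzmf, Gzmg and Gzmn) were too scarce to be tested, at most 6.45 CPM in any sample. Of 6 tested serpins, 1 rose in Sensitized against Naive, where 0.153% of all genes passed: Serpina3g, a serpin of activated T cells, at 119.6 ± 27.0 CPM (SD, n = 4) against 3.49 ± 3.47 CPM (SD, n = 3), a log2 fold change of 5.10 ± 1.16 (edgeR, adjusted p = 0.0826). Among 10 regulators 2 rose there, beside the same 0.153% of all genes. Zeb2, a transcription factor of terminal effector cells, stood at 132.6, 49.8, 185.4 and 120.2 CPM in Sensitized and at most 0.166 CPM in Naive (adjusted p = 0.0344). Il2rb, the shared IL-2 and IL-15 receptor chain, stood at 451.3 ± 89.5 CPM and 146.8 ± 24.4 CPM (1.62 ± 0.37, adjusted p = 0.0907).

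None of the list genes passed by edgeR in the other 11 comparisons, and none of the 14 tested genes for granule processing and membrane, the 17 for transport and exocytosis or the 15 for death ligands, receptors and caspases passed in any of the 12. In Sensitized against Naive, the genes of those 3 lists with the smallest adjusted p were the sorting receptor Igf2r (1.81 ± 0.74), the lysosomal protease Ctsd (1.41 ± 0.75) and the granule membrane tetraspanin Cd63 (0 to 0.0898 CPM against 0 to 14.7 CPM, the 14.7 CPM in 1 Naive sample), all at an adjusted p of 0.626, the fusion protein genes Stx11 (3.52 ± 1.83, adjusted p = 0.626) and Sytl3 (1.96 ± 1.38, adjusted p = 0.863), and then the cytokine Tnf (2.54 ± 1.74, adjusted p = 0.836). In S+P C5 against Sensitized they included Lyst, a regulator of lysosome and granule size (-1.83 ± 0.47, adjusted p = 0.237). Median log2 fold changes in Sensitized against Naive were 0.37 for processing and membrane, 0.17 for transport, 1.79 for serpins, -0.03 for death ligands and 1.26 for regulators, against 0.04 for all genes tested. The same medians in S+P C5 against Sensitized were -0.39, -0.08, 0.53, 0.02 and -0.23, against -0.01.

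For each of the 10 genes the most similar of all genes tested was sought across the 30 samples, which share groups and may share animals. The measure, given as a description, was Pearson's r of log2(CPM + 1). Gzma and Gzmb were nearest to Klre1, an NK-type receptor (r = 0.930 and 0.914), and to each other among the 10 (0.867). Nkg7 was nearest to Lgals1 (0.949) and Ccl5 (0.932), and Gzmk to S100a6 (0.906). Fasl was nearest to Myo1f (0.882) and S1pr5 (0.840), Serpinb9 to Ndfip2 (0.887), Prf1 to Kcnj8 (0.841), Gzmm to F2r (0.833), Srgn to Txn1 (0.821) and Ctsw to Cd2 (0.773). The values of Srgn ran from -0.015 with Ctsw and 0.012 with Prf1 to 0.671 with Gzmk.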

How the data were processed

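RNA was sequenced from 56 libraries of 200 cells with SmartSeq2, without molecular identifiers. The deposited values are raw counts per gene that the authors made with Cutadapt 3.4, STAR 2.6.1b, the GRCm39 genome and featureCounts 2.0.1, whose strand setting is not given in the sources used here. No column of the table was left unmatched to a sample. Technical libraries of 1 sample were summed, which left 30 samples. The 2 columns holding the identical library (Naive replicate 1 and S+P C4 replicate 1) were left out, and the nearly identical libraries labelled S+P C7 replicates 1 and 2 (Pearson r = 0.9986) were averaged and counted once. Cell suspensions came from individual mice, but the labels number more samples in some groups than the study counts animals, so samples of a group may share an animal, and p-values then measure the spread between samples.

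edgeR 4.0.16 (quasi-likelihood test with robust spread, TMM factors, and filterByExpr at 10 counts) was fitted over all 7 groups, with limma 3.58.1 and R 4.3.3. SE is the log2 fold change divided by the square root of F. A gene was called with a Benjamini-Hochberg adjusted p under 0.1 where its log2 fold change lay beyond 0.9 either way. Alternatives were DESeq2 1.42.0, RLE factors, no filter, only the groups compared, all columns kept, the identical library alone kept (chosen after seeing the data), no samples under 9000 genes, each replicate left out, an adjusted p under 0.05 and the replicate number as a block. Tables and figures used Python 3.11.15, numpy 2.4.6, pandas 2.3.3 and matplotlib 3.10.9, and the fits were tested on simulated data. Poisson intervals and the limit of 3 counts behind a 0 cover counting error only.

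Equal replicate numbers within N+P or S+P were taken as the same mouse, since suspensions came from individual mice. The lowest correlation of same-numbered deviations was 0.023 for the N+P pairs, and 0.097, 0.12 and 0.123 for the S+P pairs. The 10 genes, the lists of pathway genes and the cell type markers were chosen with earlier results of these data known. Genes that could be named were the 10 in each comparison, from each list those past both thresholds or else up to 2 with the smallest adjusted p, ties included, and up to 3 genes most like each of the 10, and the text gives a selection of these.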

Additional observations from a re-analysis of the deposited data

Results flagged for a closer look

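In groups of 4 to 6 samples, 40 sets of values of 1 gene in 1 group were tested for a sample far from the others. Of these, 9 had one. The genes share their samples, and 5 of the 9 are S+P C4 replicate 3. The rate of about 1 in 20 that chance gives for independent sets is therefore no measure here. S+P C4 replicate 3, with 7436 detected genes and 24.3% mitochondrial counts, lay far below the rest of its group for 5 genes: Gzma at 1.885 CPM (next 1580.8), Gzmb at 0 CPM (next 182.6), Gzmk at 1.092 CPM (next 245.5), Gzmm at 0 CPM (next 32.11) and Serpinb9 at 0.09924 CPM (next 68.77). It was also the lowest of its group, less far from the next, for Nkg7 at 2263 CPM, Prf1 at 91.5 CPM and Srgn at 199.1 CPM, while Ctsw stood at 713.9 CPM.

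S+P C4 replicate 2, with 8002 genes, was lowest for Ctsw at 132.6 CPM (next 527.6) while it was highest of its group for Gzma, Gzmk, Nkg7, Srgn and Serpinb9. S+P C7 replicate 3, with 7879 genes and markers of other cells, was lowest for Gzmm at 0.4203 CPM (next 47.99). S+P C5 replicate 3 was lowest for Fasl at 3.362 CPM (next 39.16). Sensitized replicate 3 was highest for Serpinb9 at 130.2 CPM (next 75.51).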

How the results depend on the processing

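Among the 10 genes, no log2 fold change of a gene that was called or did not overlap changed direction under any alternative run. By DESeq2 the number of the 10 genes called was 5 in Sensitized against Naive (3 by edgeR), 3 for N+P C5 against Naive (1 by edgeR), 2 in the difference between the changes with pregnancy (0 by edgeR) and 1 in each of N+P C1 against Naive, S+P C4 against Sensitized, S+P C5 against S+P C4, S+P C7 against the C5 subset and S+P C5 against N+P C5 (0 by edgeR), while 1.9% to 3.32% of its genes were called in these comparisons. With only the groups compared the numbers were 5, 0, 1 and 1 in Sensitized against Naive, N+P C5 against Naive, S+P C5 against N+P C5 and the difference between the changes, beside 0.735%, 0.438%, 0.014% and 0.184% of all genes in those fits. Without the samples under 9000 genes they were 5 in Sensitized against Naive (0.782% of all genes), 2 for N+P C5 against Naive (0.619%), and 1 in N+P C1 against Naive (0.0972%), S+P C5 against S+P C4 (0.199%), S+P C5 against N+P C5 (0.0818%) and the difference between the changes (0.138%). Genes without overlap then numbered 4 in S+P C4 against Sensitized (1 before, 2.55% of all genes) and 2 in S+P C5 against S+P C4 (0 before, 1.94%). For N+P C5 against Naive an adjusted p under 0.05, all columns kept (which also counts the averaged S+P C7 libraries apart) or the identical library alone kept left 0 called, beside 0.0254%, 0.0252% and 0.0252% of all genes. Either way of keeping that library left 2 called in Sensitized against Naive (0.101% and 0.0858% of all genes) and 7 without overlap (8.12%). RLE factors left 1 gene without overlap in S+P C7 against the C5 subset (0.417% of all genes).

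With the replicate number as a block 1 gene (Nkg7) was called in N+P C5 against N+P C1 (0.219% of all genes), and the pairing changed no other call of the 10 genes. Over all genes the block fit called 3 of 14016 in S+P C5 against S+P C4 and 0 in the other comparisons of S+P subsets. The main fit called 6 of 19659 in S+P C5 against S+P C4, but it tested another set of genes, so these counts differ in more than the block. The N+P pairs share a number with a lowest correlation of 0.023.

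Leaving out 1 replicate gave 1 to 3 called in Sensitized against Naive and 0 to 1 in S+P C5 against S+P C4 and in each N+P subset against Naive, where 0.0383% to 0.128%, 0.0102% to 0.0616%, 0.0085% to 0.0342% (N+P C5) and 0% to 0.00428% (N+P C1) of all genes were called. Genes without overlap ran from 2 to 5 in N+P C1 against Naive (13.4% to 17.2% of all genes) and in S+P C7 against the C5 subset (0.585% to 1.11%), 0 to 2 in S+P C5 against Sensitized (3.22% to 4.85%), 1 to 4 in S+P C4 against Sensitized (1.09% to 1.81%), 0 to 1 in S+P C5 against S+P C4 (0.788% to 1.33%) and 2 to 4 in S+P C5 against N+P C5 (3.39% to 6.28%). Where a group was left with few samples the spread was that of all groups. The cause of these shifts was not tested beyond the smaller sets of samples. Depth limits the scarcest values: a 0 allows up to 0.298 CPM in S+P C4 replicate 3.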
